A study of Mus musculus with 16 samples.

Results

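The resting transcriptome of duodenal group 2 innate lymphoid cells (ILC2) from wild-type mice is described here from 4 of the 16 libraries of a mouse RNA-seq series. The 4 libraries were taken by their titles (WT), with no measured value used, and are called WT 1 to WT 4. The labels give their genotype as Wild type B6 with Il13 smart13/smart13, so every mouse was homozygous for Smart13, a reporter allele at Il13, and the Il13 counts come from a modified locus. The mice were C57BL/6, 6 to 10 weeks old, untreated and free of specific pathogens, and cells were taken by enzymatic digestion and flow sorting from the first 5 cm of the small intestine. The sort gate is not given in the sources used here, nor whether the libraries are from different mice, so spreads and p-values describe these libraries and may be technical. No comparison with another genotype was made.

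ILC2 are tissue-resident lymphocytes without rearranged antigen receptors that depend on the transcription factors GATA3 and ROR-alpha and on IL-7. They respond to IL-25, IL-33, TSLP, lipid mediators and neuropeptides, and are known as an early source of IL-5, IL-13, IL-4, GM-CSF and amphiregulin. In the small intestine, IL-25 from tuft cells is a main signal to these cells, which carry the IL-25 receptor subunit IL-17RB and the lectin-like receptor KLRG1.

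The WT libraries held 2588981, 2593258, 2657153 and 2447504 gene counts in WT 1 to WT 4, and 15818 to 16487 genes had a count. Levels are given as CPM (counts scaled to the TMM-adjusted library size) and, for most comparisons between genes, as TPM (counts per length of exon, scaled to a fixed sum). Ranks by CPM depend on exon length as well as on level. A gene was called detected with at least 10 counts in each of the 4 libraries, which held for 9994 genes, 9339 of them protein-coding. A further 32804 of the 53465 genes had no count in any WT library. Of the protein-coding genes with a WT count, 9339 of 13202 were detected, a share to set beside the list counts below. The lists also hold genes without a count. No count in 1 library allows up to 3 counts, worth 1.11 to 1.21 CPM, by counting error alone, and none in all 4 allows less. Values after ± are standard deviations over the 4 libraries. WT 1 stood slightly apart: across 9994 genes its log2 CPM correlated with the other libraries at a Pearson r of 0.947 to 0.954, against 0.959 to 0.960 among the other 3. These correlations are across genes of libraries of similar depth and carry no test.

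All 5 ILC2 markers were detected in every library. Klrg1 (chr6:122270596-122282882, minus strand, GRCm38) had 518, 516, 521 and 541 CPM in WT 1 to WT 4, a mean of 524 ± 11.5 CPM and 1300.5 TPM, the highest TPM of the receptor genes listed here. Il17rb (chr14:29996135-30008896, minus strand), which encodes the IL-25 receptor subunit, had 890.2, 938, 947 and 1021 CPM and a mean of 899 TPM. Both were highest in WT 4, and the 4 values of each lay close together. Il7r (chr15:9505788-9530176, minus strand), the IL-7 receptor alpha chain, had 1216, 1194, 1044 and 1163 CPM and a mean of 868 TPM. Gata3 (chr2:9857078-9890034, minus strand) had 626, 571, 581 and 569 CPM and a mean of 517 TPM. Rora (chr9:68653786-69388246, plus strand), the gene of ROR-alpha, was the least even of the 5, with 1449, 1233, 1095 and 1018 CPM and a mean of 321 TPM; WT 1 was highest and WT 4 lowest. Of these markers 3 (Il17rb, Il7r and Rora) were among the 20 genes of highest mean CPM. In such bulk RNA, fewer cells with a transcript and less of it per cell cannot be told apart. The Y-linked gene Ddx3y had 1171, 877, 880 and 709 counts in WT 1 to WT 4 and Xist, the RNA that coats an inactive X chromosome, had none.

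The promoter of Il17rb is shown because it belongs to the marker that encodes the IL-25 receptor subunit, and those of Areg, Nfkbia and Tnfaip3 because these genes stand for the growth factor output and the NF-kB inhibitors described further on. Each window runs from 250 bases before to 50 bases after the RefSeq gene start on GRCm38.p6, 5′ to 3′ on the minus strand for Il17rb (chr14:30008847-30009146), Nfkbia (chr12:55492598-55492897) and Tnfaip3 (the upstream of 2 starts, chr10:19015361-19015660) and on the plus strand for Areg (chr5:91139349-91139648). Capitals mark matches on either strand to the AP-1 motif TGANTCA, the motif AGATAA of GATA factors, the cAMP response element TGACGTCA or the NF-kB consensus.
Il17rb: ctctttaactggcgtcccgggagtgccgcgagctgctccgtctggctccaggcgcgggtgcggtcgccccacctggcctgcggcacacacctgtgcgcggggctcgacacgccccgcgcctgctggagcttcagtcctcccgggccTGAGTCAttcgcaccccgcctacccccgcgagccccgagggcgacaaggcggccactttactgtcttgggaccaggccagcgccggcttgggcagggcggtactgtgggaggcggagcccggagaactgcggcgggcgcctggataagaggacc
Areg: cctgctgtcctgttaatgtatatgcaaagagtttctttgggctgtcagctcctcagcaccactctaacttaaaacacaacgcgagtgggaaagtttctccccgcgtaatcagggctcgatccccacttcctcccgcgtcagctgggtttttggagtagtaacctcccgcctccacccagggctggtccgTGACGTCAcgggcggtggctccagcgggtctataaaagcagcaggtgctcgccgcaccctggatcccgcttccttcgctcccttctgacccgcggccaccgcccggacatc
Nfkbia: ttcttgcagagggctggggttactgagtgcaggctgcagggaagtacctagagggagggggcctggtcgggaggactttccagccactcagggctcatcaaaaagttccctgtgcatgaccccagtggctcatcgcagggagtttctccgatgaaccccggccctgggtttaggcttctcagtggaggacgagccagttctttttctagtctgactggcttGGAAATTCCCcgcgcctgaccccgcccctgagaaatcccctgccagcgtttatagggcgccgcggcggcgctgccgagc
Tnfaip3: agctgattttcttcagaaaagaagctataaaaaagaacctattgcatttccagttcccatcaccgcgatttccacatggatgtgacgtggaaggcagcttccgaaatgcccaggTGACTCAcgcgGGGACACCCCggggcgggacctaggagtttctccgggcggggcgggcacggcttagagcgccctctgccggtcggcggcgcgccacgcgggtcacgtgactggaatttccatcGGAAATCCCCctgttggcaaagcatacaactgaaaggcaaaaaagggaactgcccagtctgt
Il17rb held 1 AP-1 match, Areg 1 cAMP response element, Nfkbia 1 NF-kB match, and Tnfaip3 1 AP-1 and 2 NF-kB matches. RefSeq promoters were found for 16 of the 19 genes looked up. Of all 32851 promoter windows in the RefSeq table, 7.81% held the AP-1, 11.2% the GATA, 1.79% the cAMP response element and 8.46% the NF-kB letters. The windows of Il7r, Gata3, Rora, Il4, Il5, Junb and Nmur1 held none of the 4, while those of Csf2, Il13 and Calca held 1 GATA match each and those of Fos and Nr4a1 1 NF-kB match each. The downstream start of Tnfaip3 had no match. A match is a description of letters and not of binding.

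The genes of highest CPM combined structural, RNA-processing and signalling genes, and 2 NF-kB pathway genes stood among the first 12. Neb, which encodes the giant actin-binding protein nebulin, ranked first with 1556, 2129, 2000.2 and 2275 CPM in WT 1 to WT 4, lowest in WT 1. Nrip1, a nuclear receptor corepressor, followed at 1573 ± 16.1 CPM, Serinc3 at 1289.8 ± 58.8 and Tnfaip3, the ubiquitin-editing NF-kB inhibitor A20, at 1283 ± 127. Ptprc (CD45, the pan-leukocyte phosphatase) had 1233 ± 19.6 CPM, Junb 1035 ± 60.7, the splicing factor gene Sf3b1 1030.1 ± 60.1, Nfkb1 (p105/p50) 1015 ± 10.96 and the orphan nuclear receptor gene Nr4a1 958 ± 42.9. The rest of the first 20 were Rora, Ivns1abp, Emb, Il7r, Eprs, Gimap3, Il17rb, Itm2b, Mbnl1, Ly6e and the nuclear non-coding RNA Malat1, the last at 887 ± 43.4 CPM. No gene dominated the deposited counts: the first 20 together took 2.28% ± 0.0601 of them and the first 1000 took 36.9% ± 0.397. The part of duplicate handling, which is not given, in this flat profile was not tested. Mitochondrially encoded genes took 0.374% ± 0.0149 and cytosolic ribosomal protein genes 0.556% ± 0.00744 of the counts.

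**Figure D1:**
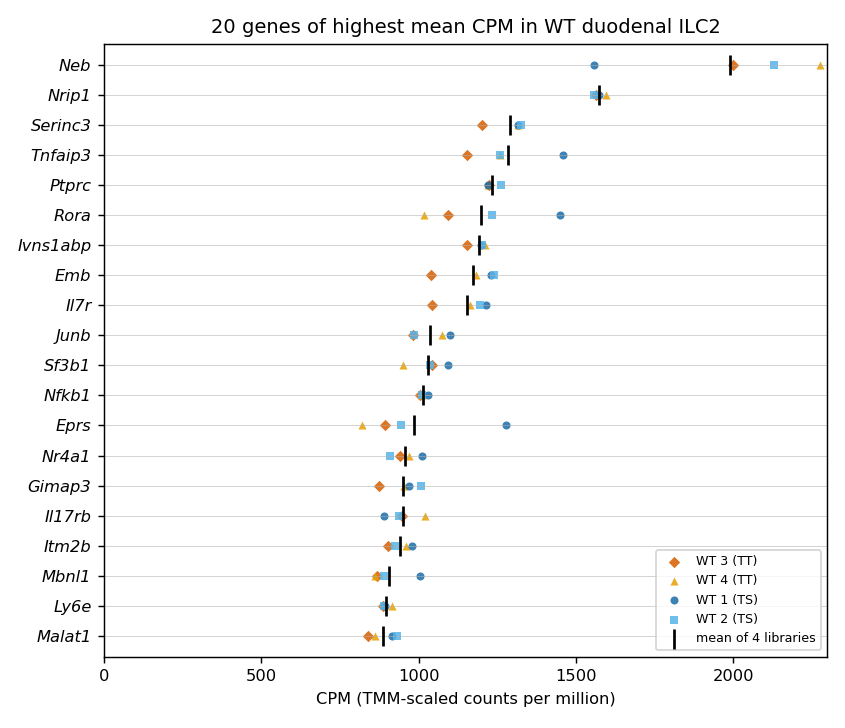
The 20 genes of highest mean CPM in the WT libraries, with 1 symbol per library (legend: WT 3 and WT 4 from code set TT, WT 1 and WT 2 from code set TS) and a black bar at the mean; the horizontal axis is CPM from 0. Neb spans 1556 to 2275 CPM and Rora 1018 to 1449, while Nrip1, Nfkb1 and Ptprc lie within a narrow band.

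Per length of exon the order was different, and 12 of the 20 genes above had over 5000 exonic bases. Neb, first by CPM, had 26582 exonic bases and ranked 758 by TPM, at 263 TPM. The highest TPM fell on short T cell receptor segments, Trbd1, Trbj1-1, Trbj1-2 and Trgj1, of which Trbj1-2 had 110, 112, 113 and 102 counts over 48 exonic bases. Segments this short give TPM values with little meaning, so genes of at least 200 exonic bases are given next, a choice made after these values were seen. Among them Igkc, the immunoglobulin kappa constant region, had 2404 ± 116 TPM, B2m (the light chain of MHC class I) 2070.5 ± 68.4, Gzma (the serine protease granzyme A) 1882 ± 86.8 and Hilpda (a lipid droplet protein induced by hypoxia) 1789.8 ± 87.3. The mitochondrial genes mt-Cytb and mt-Rnr2 had 1788 ± 43.9 and 1767 ± 102 TPM, Junb 1579 ± 91.6, Nfkbia (the NF-kB inhibitor IkB-alpha) 1531 ± 62.4 mt-Nd1 1484 ± 99.8 and Nkg7 (a cytotoxic granule protein) 1422 ± 58.1. Only 3 genes (Junb, Gimap3 and Itm2b) were among the 20 highest on both scales. Read density bears on the top of this order: 112 genes reached 0.5 counts per exonic base and 11 reached 1, the densest being Igkc at 1.77. Whether duplicate reads were removed was not given, and whether levels of the densest genes are compressed was not tested.

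Of 154 transcription factor genes listed, 118 (76.6%) were detected, 28 were low and 8 had no count, and 74 of them averaged at least 100 CPM. Beside that share, 9339 of the 13202 protein-coding genes with a WT count were detected. Detected members had a median of 76.6 TPM, beside 47.1 TPM over all detected genes. Of the 78 lineage factors, 51 were detected. Id2, the inhibitor of E proteins that all innate lymphoid cells need, had 612, 647, 586 and 602 CPM in WT 1 to WT 4 and a mean of 880.3 TPM. Lmo4 (a LIM-domain adaptor, 764 ± 74.03 TPM), Gata3 (517 ± 21.6 TPM), Cebpb (455 ± 48.2 TPM) and Nfil3 (353 ± 81.4 TPM) came next, and Rora had 321 ± 48.8 TPM. The SD ranges of Rora and Nfil3 overlapped, and they leave out the choice of exon length. Nfil3, needed early in innate lymphoid development, had 166, 169, 263 and 218 CPM, highest in WT 3.

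Among factors with known roles in ILC2, Ets1 had 216 TPM, Tcf7 (TCF-1) 187, Gfi1 124, Bcl11b 49.1, Maf 75.2, Zbtb7a 44.7 and Zbtb16 (PLZF, marking innate lymphoid precursors) 8.51 TPM. The Ikaros family members Ikzf3, Ikzf1 and Ikzf2 had 296, 139 and 97.4 TPM. The nuclear receptors and ligand sensors Pparg (a lipid sensor), Ahr (the aryl hydrocarbon receptor) and Nr3c1 (the glucocorticoid receptor) had 175 ± 25.01, 323 ± 16.2 and 649 ± 57.2 CPM, or 208, 184 and 296 TPM. Of the retinoid X receptors, Rxrg had 539 ± 61.7 TPM, Rxrb 47.8 and Rxra 6.54, so the gamma form was the most abundant of the family. Factors that direct other lineages were low or without a count: Tbx21 (T-bet) averaged 8.41 CPM, Foxp3 4.43, Bcl6 6.68, Spi1 3.87 and Eomes 0.0957, and Pax5, Gata2 and Cebpa had none.

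Of the 76 signal-dependent factors 67 were detected, and the highest TPM among transcription factors fell on them. Junb led with 1101, 984, 984 and 1074 CPM and 1579 TPM, ahead of Hes1 (a Notch target, 999 ± 81.3 TPM), Fos (994 ± 88.9 TPM) and Nr4a1 (958 ± 42.00 TPM). The SD ranges of Hes1, Fos and Nr4a1 overlapped, and they leave out the choice of exon length. Batf had 675 ± 73.9 TPM and Bhlhe40, which limits IL-10 in lymphocytes, 504 ± 15.6 TPM. The NF-kB subunits Nfkb1, Rela, Rel, Nfkb2 and Relb had 295, 263, 140.2, 115 and 88.9 TPM. Nfkb1 was even between libraries, with 1031, 1011, 1006 and 1012 CPM. Of the STAT factors, Stat4, Stat6 and Stat3 had 223, 168 and 147 TPM, and Stat5b and Stat5a, which act below IL-2 and IL-7 receptors, 62.7 and 20.1. Egr1 had 31.8 TPM, while Egr2 and Egr3 were low at 1.05 and 2.36 CPM. The summed CPM of this list was 15936 in WT 1 and 15140 to 15227 in the other 3 libraries.

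**Figure D2:**
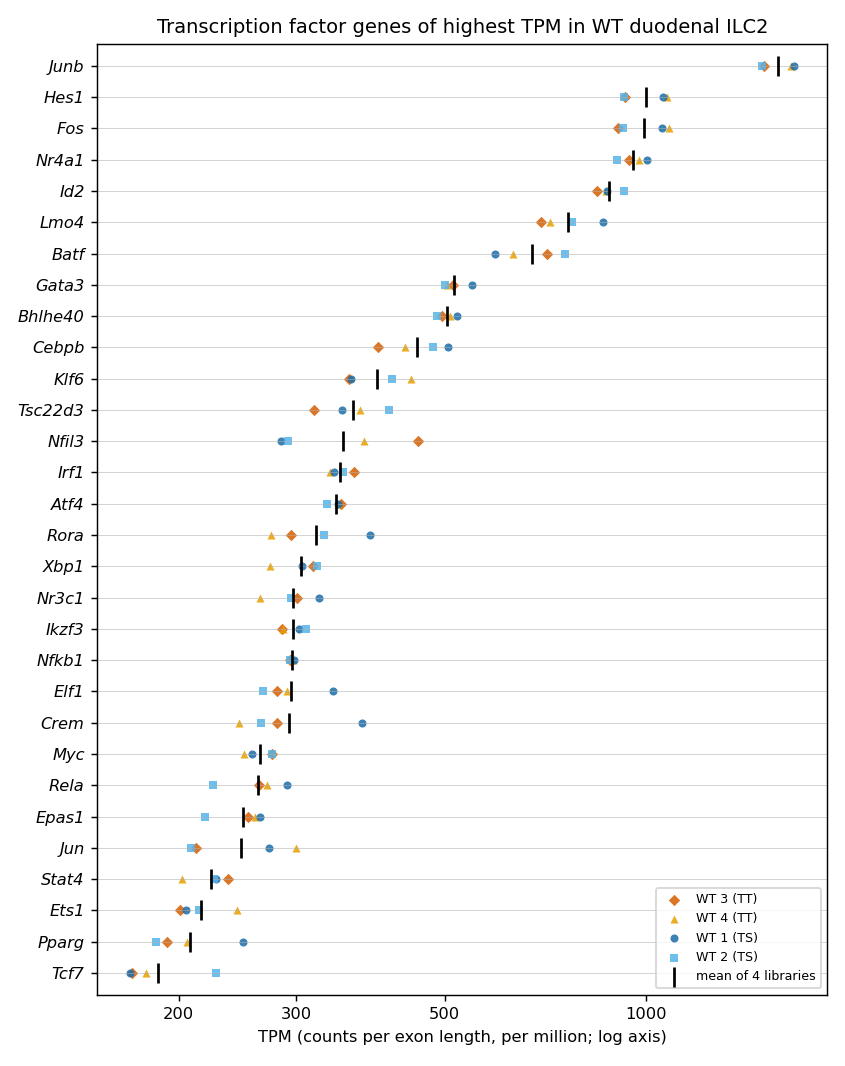
TPM (log axis) of the 30 transcription factor genes of highest mean TPM, with 1 symbol per WT library (legend: WT 3 and WT 4 from code set TT, WT 1 and WT 2 from code set TS) and a black bar at the mean. The plot runs from Junb at 1579 TPM to Tcf7 at 187 TPM, and Rora and Nfil3 show the widest gaps between libraries among the lineage factors drawn.

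Immediate early genes were present together at high levels: 22 of 25 were detected, among them Btg2 (985 ± 114 TPM), Ier2 (894 ± 99.4 TPM) and the MAP kinase phosphatase gene Dusp1 (793 ± 55.1 TPM) beside Junb, Fos and Nr4a1. Their summed level was 7753, 6927, 6886 and 7658 CPM in WT 1 to WT 4. Tissue digestion is known to raise such genes, and its part here was not tested. The heat-shock genes Hspa1b and Hspa1a, near-identical copies whose reads may be split, had 62.2 and 18.03 TPM.

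All 13 NF-kB inhibitor and mRNA decay genes listed were detected. Beside them, 9994 of the 53465 genes in the table were, and 9339 of the 13202 protein-coding genes with a WT count. Nfkbia had 749, 691, 679.6 and 691 CPM in WT 1 to WT 4 and Tnfaip3 1459, 1259, 1155 and 1259 CPM, both highest in WT 1. Their promoter windows, printed above, held 1 and 2 NF-kB matches. On the TPM scale Nfkbia (1531) stood above Tnfaip3 (623), Nfkbiz (IkB-zeta, 619), Nfkbid (567) and Zfp36 (tristetraprolin, which destabilizes cytokine mRNAs, 517). Zfp36l1, Nfkbib, Zfp36l2, Nfkbie and Bcl3 had 292, 211, 147, 145 and 114 TPM, and the genes of the RNA-binding proteins regnase-1 (Zc3h12a) and roquin-1 (Rc3h1) 69.2 and 29.3 TPM.

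Of 343 receptor genes listed, 152 (44.3%) were detected, 103 were low and 88 had no count, and 78 averaged at least 100 CPM. The share beside it is again 9339 of the 13202 protein-coding genes with a WT count. Detected members had a median of 90.8 TPM. Among receptors for alarmins and the IL-1 family, 8 of 15 were detected and Il17rb stood far above the rest. Sigirr, an inhibitory member of the IL-1 receptor family, came next at 142 ± 25.3 TPM. Il1rl1 (ST2, the IL-33 receptor) had 246, 209, 166 and 235 CPM in WT 1 to WT 4 and 109 ± 17.9 TPM, against 899 ± 56.1 TPM for Il17rb. The partner chains Il17ra (for IL-25) and Il1rap (for IL-33) had 22.2 and 4.98 TPM. Crlf2, the TSLP receptor, had 14.7, 16.8, 15.2 and 21.04 CPM (39.8 TPM) and the IL-18 receptor genes Il18r1 and Il18rap 13.3 and 14.8 TPM. All of these were detected in every library, at levels well apart from Il17rb. Il1r1, a receptor for IL-1, averaged 1.16 CPM and did not reach the detection minimum.

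Among the gamma-chain and other type I cytokine receptors, 11 of 31 were detected. Il2rg, the common gamma chain, had 445, 432, 417 and 418 CPM and 629 ± 15.97 TPM, Il2ra (CD25) 346 ± 21.4 TPM and Il2rb 180.3 ± 13.9 TPM. Il27ra had 215 ± 15.3 TPM, Il9r 193 ± 32.5 TPM and Il4ra 45.8 TPM. Il9r was lowest in WT 1, with 206, 281, 303 and 296 CPM. Csf2rb (the shared chain of the IL-3, IL-5 and GM-CSF receptors), Il5ra, Il13ra1 and Il23r had no count in any WT library, and Csf2ra had 30.96 TPM. For interferons and TGF-beta, Ifngr1 (502 ± 51.96 TPM), Ifnar1 (182 ± 20.3 TPM), Ifngr2 (156 ± 14.5 TPM) and Ifnar2 (109.5 ± 4.82 TPM) led the 12 of 21 members detected, and Il10rb and Tgfbr2 had 67.2 ± 6.37 and 65.4 ± 8.37 TPM.

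In the TNF receptor superfamily 12 of 25 were detected, led by Tnfrsf18 (GITR) at 828 ± 54.6 TPM, Cd27 at 434 ± 24.5 and Tnfrsf25 (DR3, the receptor of TL1A) at 348 ± 32.7. Tnfrsf1b (TNFR2), Tnfrsf9 (4-1BB) and Tnfrsf13b (TACI) had 132 ± 32.1, 76.8 ± 22.2 and 54.8 ± 15.01 TPM. Tnfrsf4 (OX40) averaged 5.15 CPM and did not reach the minimum. Of the costimulatory and checkpoint receptors, 23 of 35 were detected. Icos had 730.1, 649, 686 and 583 CPM in WT 1 to WT 4 and 677 ± 60.9 TPM, close to Cd96 at 729.8 ± 26.8 TPM, and Cd160 had 401 ± 27.2 TPM and Cd200r1, the inhibitory CD200 receptor, 317 ± 62.99 TPM. Pdcd1 (PD-1) had 193, 279, 209 and 271 CPM and 432 ± 79.6 TPM, higher in WT 2 and WT 4. Ctla4 was among the most uneven receptors, with 48, 99, 445 and 86 counts and WT 3 far above the other 3 libraries. Tigit, Havcr2 (TIM-3) and Lag3 were low, at 10.2, 1.24 and 0.0957 CPM.

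Chemokine and homing receptors were detected for 16 of 37 members. Cxcr6 had 654, 656, 681 and 622 CPM and 1187 ± 42.2 TPM, Ccr8 353, 323, 357 and 422 CPM and 1087 ± 130.3 TPM, and Ccr4 251, 324, 410.1 and 388 CPM and 389.8 ± 83.00 TPM. Ccrl2, an atypical chemoattractant receptor, and Selplg, the P-selectin ligand, had 686 ± 111 and 557 ± 20.8 TPM. Cxcr6 was even, whereas Ccr4 was lowest in WT 1 and highest in WT 3. Ccr9, the receptor for the small intestinal chemokine CCL25, had 163 TPM, Gpr183 (an oxysterol receptor) 322 ± 53.2 and Cd69, which retains lymphocytes in tissue, 160.3 TPM. S1pr1, which directs egress from tissue, averaged 3.77 CPM, and Ccr7, a lymph node homing receptor, had 66.3 TPM. Among integrins, 8 of 26 were detected: Itgb7 had 677 ± 24.5 TPM and Itga4 138 ± 26.9, the chains of the gut-homing alpha4 beta7 integrin. Itgb3, Itgb2, Itgb1 and Itgal had 215 ± 10.7, 198 ± 20.4, 156 ± 8.01 and 114 ± 22.3 TPM. Itgae, the other partner of beta7, was low at 3.798 CPM. Itga4 was highest in WT 2, with 522, 705, 449 and 530.5 CPM.

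Lipid mediator receptors were detected for 14 of 34 members, with both cysteinyl leukotriene receptors among the highest. Cysltr1 had 545, 520.4, 451 and 515 CPM in WT 1 to WT 4 and 346 ± 26.3 TPM, and Cysltr2 249.8, 226, 185 and 212 CPM and 266 ± 31.96 TPM. Ltb4r1, the receptor of leukotriene B4, had 394 ± 63.99 TPM, and the acid-sensing receptor gene Gpr65 574 ± 35.7 TPM. The G protein-coupled receptor genes Gpr34 and Gpr132 had 189 ± 25.8 and 184 ± 20.9 TPM. For prostanoids, Ptgir (prostacyclin) had 137 TPM, Ptger4 and Ptger2 (prostaglandin E2) 66.8 and 47.2 TPM. The prostaglandin D2 receptor genes Ptgdr2 (CRTH2) and Ptgdr had no count in any WT library. Ffar2, a receptor for short-chain fatty acids, had 143 TPM.

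Neuropeptide, amine and nucleotide receptors were detected for 12 of 40 members, and Nmur1, the receptor for neuromedin U, led them with 375, 444, 459 and 457 CPM and 898 ± 85.9 TPM. WT 1 was lowest and the other 3 libraries were close together. Ramp3, an accessory chain of the calcitonin receptor family, had 702 ± 84.4 TPM, its family member Ramp1 61.4 and their partner Calcrl 24.6 TPM. Vipr2, a receptor for vasoactive intestinal peptide, had 195 ± 40.2 TPM, and Vipr1 had no count. P2ry10 had 469.8 ± 66.97 TPM and P2rx4 and P2rx7, channels opened by ATP, 88.6 and 56.1 TPM.

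Lectin-like and innate receptors were detected for 14 of 39 members. After Klrg1 came Ly6a (Sca-1) at 1033 ± 50.6 TPM and Hcst (the adaptor DAP10) at 494 ± 69.6 TPM. Cd7, Klrb1b and the signalling adaptor gene Fcer1g had 299 ± 184, 183 ± 29.4 and 143 ± 85.9 TPM. Kit had 70.4 TPM and Thy1 19.7 TPM. Klrd1, Klrc1 and Klrb1c (NK1.1), which mark natural killer cells, averaged 0.101, 0.478 and 0.751 CPM. Of the Toll-like receptors, Tlr1, Tlr6 and Tlr2 were detected, at 19.6, 17.5 and 7.99 TPM.

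**Figure D3:**
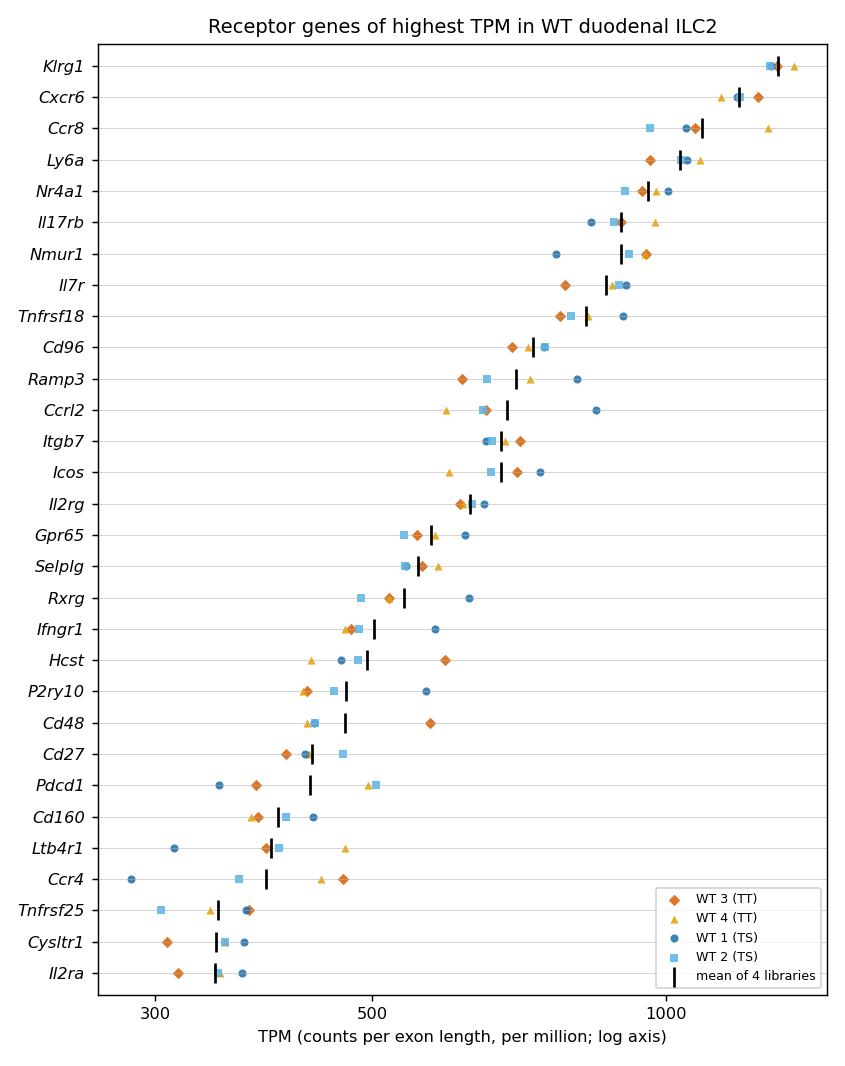
TPM (log axis) of the 30 receptor genes of highest mean TPM, with 1 symbol per WT library (legend: WT 3 and WT 4 from code set TT, WT 1 and WT 2 from code set TS) and a black bar at the mean. The genes run from Klrg1 at 1300.5 to Il2ra at 346 TPM; Klrg1, Il2rg and Itgb7 are tight, and Ccr4 and Pdcd1 are spread widely.

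Of 156 genes for cytokines, chemokines and other secreted products, 44 (28.2%) were detected, 56 were low and 56 had no count, and 13 averaged at least 100 CPM. The share beside it is again 9339 of the 13202 protein-coding genes with a WT count. Detected members had a median of 81.7 TPM. Csf2, which encodes GM-CSF, had 271, 265, 275 and 246 CPM in WT 1 to WT 4 and 1159 ± 54.4 TPM, and Il4 had 284, 279.7, 304 and 291 CPM and 829 ± 33.7 TPM. Both were even between libraries. Il5, the eosinophil growth factor, had 46.8, 61.2, 148 and 41.7 CPM and 170.3 ± 115 TPM, with WT 3 above the other 3 libraries. Il13, read from the reporter locus, had 17, 30, 32 and 30 counts, or 10.5 ± 2.64 CPM and 30.7 ± 7.81 TPM, lowest in WT 1. In TPM, Il5 had 106, 139, 340.1 and 95.8 and Il13 19.02, 33.3, 34.7 and 35.6 in WT 1 to WT 4, so Il13 was below Il5, and further below Il4, in every library. Il9 averaged 6.64 CPM and did not reach the minimum in every library.

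Other interleukins detected were Ebi3 (282 ± 44.3 TPM), Il6 (186 ± 42.3 TPM), Il2 (137 ± 23.6 TPM), Lif (96.5 ± 32.9 TPM), Osm (81.9 TPM), Il16, Il15 and Il7. Il2, better known from T cells, was present in each library at 54.5, 35.6, 45.3 and 42.9 CPM. Il22 (9.49 CPM), Il17a (2.36 CPM), Il10 (3.06 CPM) and Il3 (1.48 CPM) were low, and Il25, Il33 and Tslp, the alarmins made by epithelial and stromal cells, had no count. Of the TNF superfamily, interferon and TGF-beta ligands, 13 of 32 were detected. Ltb (lymphotoxin beta) had 512 ± 33.7 TPM, Tnfsf11 (RANKL) 263 ± 24.9, Tnfsf14 (LIGHT) 193 ± 18.5 and Bmp7 81.5 ± 11.1 TPM. Mif and Lta (lymphotoxin alpha) had 173 ± 3.700 and 90.3 ± 26.9 TPM. Ifng and Tnf were low, at 4.64 and 4.74 CPM.

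Among growth factors, neuropeptides and other effectors, 13 of 42 were detected and 4 of them (Gzma, Calca, Areg and Lgals9) had a higher TPM than every interleukin other than Il4. Gzma had 574, 535, 509 and 541 CPM in WT 1 to WT 4 and 1882 ± 86.8 TPM. Calca, which encodes calcitonin and the neuropeptide CGRP, had 608, 535, 586 and 566 CPM and 1196 ± 63.7 TPM. Both were even, with WT 1 highest. Areg, the epidermal growth factor receptor ligand amphiregulin whose promoter is printed above, had 239, 251, 305 and 247 CPM and 752 ± 89.9 TPM, close to Lgals9 (galectin-9) at 746 ± 38.2 TPM. Prf1 (perforin) had 125 ± 5.28 TPM, Lgals1 (galectin-1) 108 ± 48.6, Hbegf 30.9 and Nmb (neuromedin B) 54.3 TPM. Gzmb averaged 20.3 CPM without reaching the minimum in every library, and Ereg, Igf1, Retnla and Tac1 had no count. Chemokines were detected for 6 of 35 members: Cxcl10 at 218 ± 56.3 TPM, Ccl5 at 107 ± 51.7, Cxcl2 at 96.4 ± 52.2, Ccl1 at 77.8 ± 35.9, Ccl25 at 16.9 ± 3.06 and Cx3cl1 at 7.94 ± 2.52 TPM. Ccl5 and Ccl1 were lowest in WT 4, and Cxcl2 was lowest in WT 1.

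**Figure D4:**
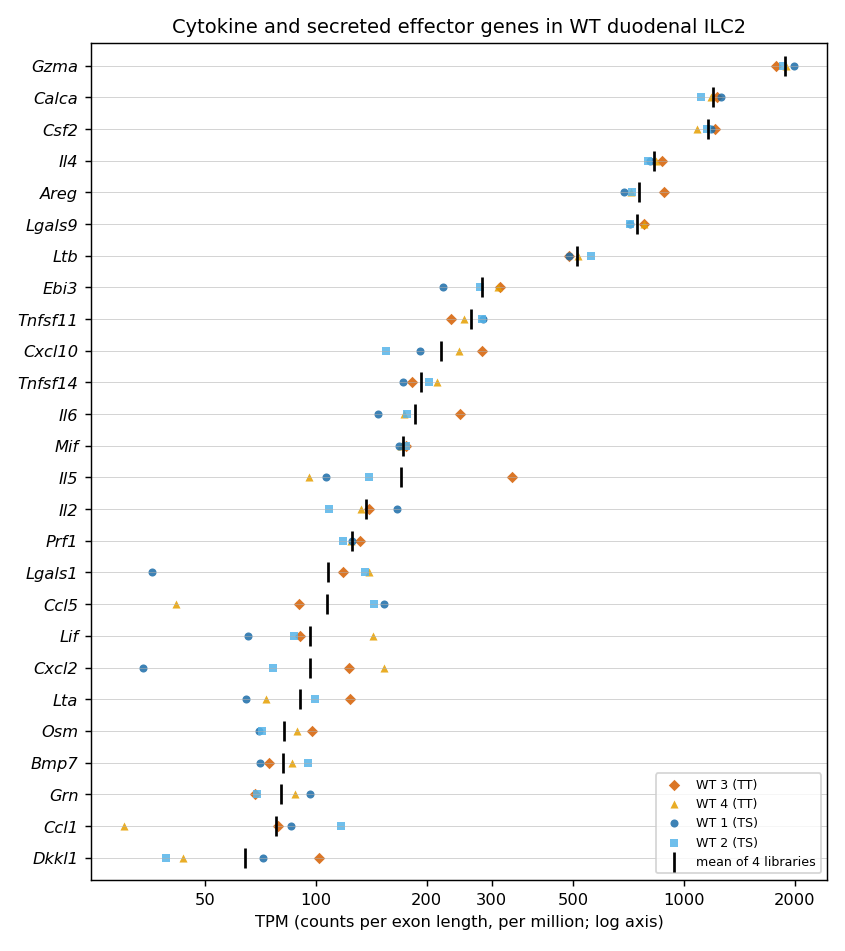
TPM (log axis) of the 26 cytokine, chemokine and secreted effector genes of highest mean TPM, with 1 symbol per WT library (legend: WT 3 and WT 4 from code set TT, WT 1 and WT 2 from code set TS) and a black bar at the mean. Gzma, Calca and Csf2 form the tight upper end, and Il5 shows 1 library (WT 3) at 340.1 TPM with the other 3 between 95.8 and 139 TPM.

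Of 22 genes of leukotriene and prostaglandin synthesis, 8 were detected in the WT libraries. Alox5, the enzyme that begins leukotriene synthesis, had 145, 75.4, 82.4 and 79.3 CPM in WT 1 to WT 4 (81.6 ± 28.02 TPM), with WT 1 highest. Lta4h, which makes leukotriene B4, had 195 ± 4.87 TPM. Alox5ap, the partner protein of Alox5, and Ltc4s, the cysteinyl leukotriene synthase, had no count in any WT library. Ptgs2 (COX-2) had 96.6 ± 20.4 TPM and Hpgds, the prostaglandin D2 synthase of haematopoietic cells, 56.5 ± 15.6 TPM, and Ptges3 (a prostaglandin E synthase) 78.8 ± 5.21 TPM, while Ptgs1 averaged 0.557 CPM.

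Arg1, the arginase that marks ILC2 at rest, had 387, 308, 309.9 and 329 CPM and 525 ± 56.1 TPM, and led the 14 of 25 arginine, polyamine and tryptophan genes detected. Its paralogue Arg2 averaged 0.0967 CPM. Slc3a2, the heavy chain of amino acid transporters, had 463 ± 20.7 TPM and the antizyme inhibitor gene Azin1 77.4 ± 10.99 TPM. The polyamine genes Srm, Sat1 and Odc1 had 281, 168 and 140.0 TPM, and Tph1, which starts serotonin synthesis, 15.2 TPM. Of the lipid storage genes 15 of 19 were detected, led by Dgat1 (triglyceride synthesis, 471 ± 17.3 TPM), Plin2 (a lipid droplet coat protein, 279 ± 54.3 TPM) and Pparg. Pnpla2 (a triglyceride lipase), Plin3 and Dgat2 had 168 ± 5.59, 70.1 ± 6.18 and 46.6 ± 23.1 TPM. Cd36 and Fabp4 were low, at 1.23 and 0.278 CPM.

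STAT5 targets and SOCS genes were detected for 18 of 19 members, with Pim2 (370.5 ± 25.03 TPM), Pim3 (270.2 ± 51.1 TPM), Bcl2 (239.5 ± 39.6 TPM), Myc (265 ± 12.8 TPM), Ccnd2 (227 ± 3.25 TPM), Cish (161 TPM) and Socs1 (151 TPM) among them. MHC genes were detected for 21 of 22 members. H2-D1 and H2-K1, similar in sequence so that reads may be split or lost, had 1202 ± 39.5 and 1045 ± 30.1 TPM. Psmb10, an immunoproteasome subunit, the class I-like gene H2-T23 and the class II-like gene H2-Oa had 602 ± 24.1, 376 ± 9.79 and 343 ± 5.88 TPM. The class II genes Cd74, H2-Ab1, H2-Eb1 and H2-Aa had 343, 109, 56.8 and 36.1 TPM, and their transactivator Ciita was low at 4.28 CPM. In the same libraries 10 of 16 B and plasma cell markers were detected, with summed levels of 2432 to 2849.8 CPM; Cd79b and Ighm averaged 174 and 552 CPM and Ms4a1 1.44 CPM. The part of B cells in the class II values was not tested. The interferon response list had 23 of 30 detected, among them Igtp (463 ± 40.5 TPM), Isg15 (420.4 ± 78.1 TPM) and Irf1 (349 ± 12.9 TPM), and Ifi47, Bst2 and Gbp2 at 376, 376 and 349 TPM, while Mx1 and Ifit3 were low at 2.53 and 0.771 CPM.

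Cell cycle genes were detected for 29 of 37 members. The replication helicase genes Mcm6, Mcm4 and Mcm3 had 185 ± 21.7, 144 ± 19.7 and 107 ± 28.5 TPM, their relative Mcm7 74.5 ± 27.2 and the replication clamp gene Pcna 106 ± 6.33 TPM. Of mitotic genes, Kif23, a kinesin of cytokinesis, had 103 ± 16.2 TPM and was highest in WT 1, with 278, 217, 192 and 245 CPM, and Mki67, Top2a and Cdk1 had 18.8, 21.5 and 19.8 TPM. The summed CPM of the list was 2384 in WT 4 and 1547 to 1742 in the other 3 libraries. WT 4 was thus the highest for the sum.

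Markers of myeloid, granulocyte, epithelial and stromal cells were mostly low or without a count, though Pecam1 of the stromal, endothelial and glial list averaged 148 CPM. The B and plasma cell, T cell and natural killer cell lists each held members of over 100 CPM. Of 16 B and plasma cell markers 10 were detected: Igha had 707, 795, 770.2 and 776 CPM in WT 1 to WT 4, Jchain 572, 648, 580.1 and 529, Ighm 547, 542, 553 and 565 and Igkc 346, 377, 356 and 379.9, and Cd79b averaged 174 ± 22.2 CPM. The light chain gene Iglc2 had 30.2, 48.6, 19.3 and 41.3 CPM and varied more than the other constant regions named. Ms4a1 (CD20), a B cell surface marker, averaged 1.44 CPM, and Pax5 had no count. The summed level of that list was 2432 to 2849.8 CPM. Of 13 T cell markers 7 were detected: Trbc1, Trbc2 and Lat averaged 255 ± 14.5, 183 ± 4.94 and 236 ± 2.68 CPM, and Cd3g, Cd3e and Cd3d 115 ± 15.9, 15.6 ± 6.597 and 6.77 ± 2.51. Cd4 averaged 0.285 CPM, and Cd8a and Cd8b1 had no count. The list summed to 817 to 869 CPM in the 4 libraries.

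For the natural killer and ILC1 list, 5 of 12 were detected: Gzma (539.8 ± 26.8 CPM), Cd160 (302 ± 22.2), Prf1 (92.00 ± 3.69), Itga2 (50.5 ± 14.5) and Ncr1 (22.4 ± 8.17), whereas Eomes averaged 0.0957 CPM and Klre1 and Klra8 had no count. It summed to between 969.9 and 1079.7 CPM. The ILC3 list had 2 of 9 detected, Ncr1 among them, with Il23r and Il17f at no count. The macrophage and dendritic cell list had 2 of 16, Xcr1 at 45.6, 14.9, 18.6 and 11.7 CPM and Zbtb46 at 22.8, 6.89, 3.71 and 5.26 CPM, both highest in WT 1, and Csf1r, Adgre1 and Itgax had no count. Granulocyte and mast cell markers had 2 of 20 (Prg2 at 12.02 ± 5.57 CPM and Hdc at 42.99 ± 5.03), with Epx, S100a8 and Mcpt1 at no count. Epithelial and tuft cell markers had 1 of 24, Epcam at 38.3 ± 9.69 CPM, with Vil1, Dclk1, Trpm5 and Pou2f3 at no count. The stromal, endothelial and glial list had 2 of 17, Pecam1 at 148 ± 19.5 CPM and Pdgfrb at 47.8 ± 21.97, with Cdh5, Vwf and Kdr at no count. Summed over each list, the WT libraries held 58.0 to 121 CPM of ILC3 markers, 22.3 to 71.5 CPM of macrophage and dendritic cell markers and 47.3 to 69.6 CPM of granulocyte and mast cell markers. The epithelial and tuft cell list summed to 29.8 to 65.6 CPM and the stromal, endothelial and glial list to 157 to 227 CPM. The part of other cells in the values above was not tested.

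Spread between the WT libraries followed the count level. The median coefficient of variation (CV) was 15.5% over the 9994 detected genes, and the median variance was 3.73 times that of counting alone. It was 31.8% for the 814 genes of 10 to 30 mean counts and 5.87% for the 290 genes of at least 1000. By class the median CV was 12.2% for transcription factors, 16.6% for receptors and 22.8% for cytokines and other secreted products, with no test of the differences. The classes were not matched for count. At least 100 CPM was averaged by 74 of 154 transcription factors, 78 of 343 receptors and 13 of 156 cytokines and other secreted products. The part of count level in the class values was not tested. Without WT 1 the median CV over all detected genes was 13.0%. Of the 100 most uneven genes of at least 100 CPM, WT 1 was farthest from the median in 57, WT 2 in 13, WT 3 in 13 and WT 4 in 17.

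The least even abundant gene was Igkv5-48, an immunoglobulin kappa variable segment, with 602, 3, 9 and 533 counts in WT 1 to WT 4. It was thus high in WT 1 and WT 4 and at or under 9 counts in WT 2 and WT 3. Stab2 had 260, 662, 896 and 898 counts, low in WT 1, and Scin (scinderin, an actin-severing protein) 278, 138, 423 and 298 counts, low in WT 2. Gla, Gabpb1, Ell2 and Evi2a were highest in WT 1, with CVs of 37.2%, 35.5%, 34.1% and 33.5%, and Lif was highest in WT 4 with 33.5%. At the other end, Ccs, Calm3, Naxe, Tug1, Pfdn5, Rpl32, Hspbp1 and Sem1 had CVs of 0.715% to 2.22%. Among ILC2 genes of high count, Klrg1, Il4, Gata3 and Csf2 had CVs of 2.196%, 3.65%, 4.58% and 4.98%, and Rora 15.8%. Il5 had 67.04%, whereas Il13, at 25.1%, was below the median of genes of 10 to 30 counts, the range in which its mean count lay.

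**Figure D5:**
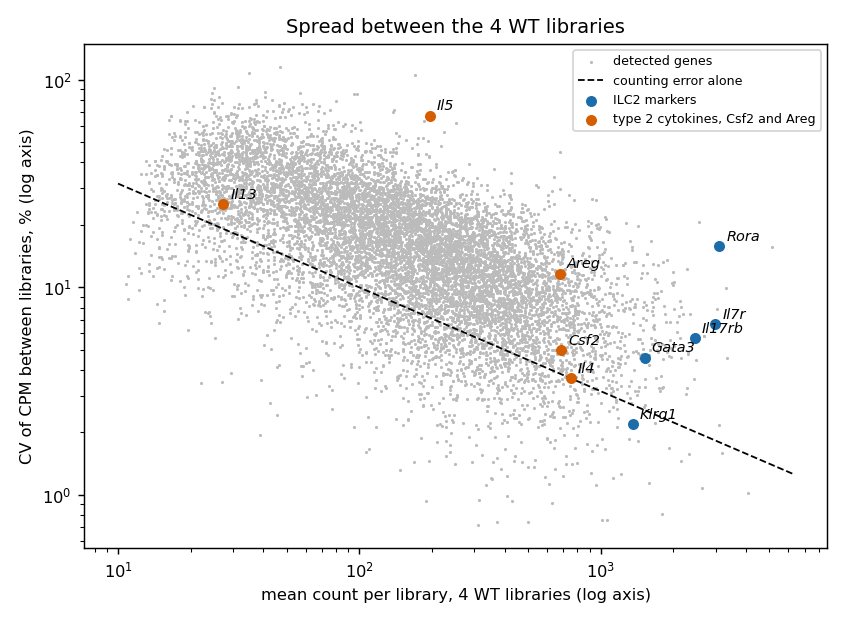
CV of CPM between the 4 WT libraries (percent, log axis) against the mean count per library (log axis) for the detected genes, in grey, with ILC2 markers in blue and type 2 cytokines, Csf2 and Areg in orange; the dashed line is the CV of counting alone. Il5 lies at 67.04%, far above the line, and Klrg1 at 2.196% lies just under it.

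The sample codes divide the WT libraries into TT (WT 3 and WT 4) and TS (WT 1 and WT 2), and what the letters stand for is not given. With edgeR's quasi-likelihood test and Benjamini-Hochberg adjustment over 11742 genes, 0 genes (0%) differed between WT TT and WT TS at an adjusted p of 0.05, and 526 had an unadjusted p under 0.05. The median absolute log2 difference was 0.21 and its median standard error 0.32. In simulated data the edgeR test recovered 43% of 2-fold and 82.3% of 4-fold changes, out of 300 of each. Its recovery where only a few genes differ was not tested. Differences of 2-fold could often be missed, and those of 4-fold could be missed too. DESeq2 called 1 gene, Harbi1 (named after its values were seen), with 120 and 123 counts in WT TT, against 24 and 34 in WT TS. Its log2 difference in edgeR was 2.07 ± 0.41 (SE), with an adjusted p of 0.999.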

How the data were processed

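RNA of sorted duodenal ILC2 was sequenced in 4 WT libraries of a series of 16. The authors deposited 1 table of raw read counts per gene, not scaled for depth or length. The submitters' processing notes name the build GRCm38 with FastQC 0.11.3, Picard 1.134, the aligner STAR 2.4.2a and the counter HTSeq 0.4.1. Neither settings nor duplicate handling is given in the sources used here. The Nextera XT preparation named in the labels' protocols keeps no strand information, so reads of overlapping or antisense genes cannot be told apart, and near-identical copies may share reads. Of 53471 rows, 6 with a repeated identifier were dropped. Genes with no symbol held 0.188% of the WT counts.

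CPM used TMM factors of edgeR 4.0.16 (R 4.3.3) from all 16 libraries. TPM used the union of exons in GENCODE M21, which has 99.8% of the identifiers. A gene was detected with at least 10 counts in each of the 4 WT libraries, low with fewer and at 0 with none. Intervals and limits cover counting error only. The 1 test, WT TT against WT TS, was edgeR's quasi-likelihood F test over all 16 libraries in 8 genotype and code groups (8 residual degrees of freedom, robust, newer mode), adjusted by Benjamini-Hochberg over 11742 genes. It was tested on simulated data. DESeq2 1.42.0, other scalings, detection minimums, lengths and leaving out each library were the alternatives.

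The members and the 36 gene lists (937 genes) were chosen with earlier results of these data known. Named genes were the 20 of highest CPM, the 10 of highest TPM, up to 6 detected members of highest TPM per list, the markers, the series' targeted and reporter genes, and the 8 most and 8 least even genes of at least 100 CPM. Other list members are named with their values. Ranking by TPM among genes of at least 200 exonic bases was added after the data were seen. Promoters are from RefSeq on GRCm38.p6. No deposited column lay outside the 16 libraries. Some list members are counted but not reported here by name.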

Additional observations from a re-analysis of the deposited data

Results flagged for a closer look

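In 15 of 250 values tested, 1 WT library lay so far from the other 3 that the gap, as a share of the range of the 4, exceeded Dixon's critical value. Chance flags about 1 in 20 groups. WT 1 was the far library for Alox5, at 145.4 CPM against 75.4 to 82.4 in the others, Ell2 at 372.78 (188 to 216), Pim3 at 241.3 (164 to 173), Nfkbia at 749.43 (679.6 to 691), Dgat1 at 434.66 (400.1 to 405), Zbtb46 at 22.816 (3.71 to 6.89) and, on the low side, Il13 at 6.574 CPM (11.5 to 12.1). The summed CPM of the signal-dependent transcription factors was 15936 in WT 1 (15140 to 15227 in the others), and that of the macrophage and dendritic cell markers 71.54 (22.3 to 28.7).

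WT 2 was the far library for Igtp, at 302.69 CPM (250.2 to 258 in the others), Ptprc at 1262 (1222 to 1225) and the summed ILC3 markers at 120.92 CPM (58.0 to 68.7). WT 3 was far for Cd48, at 193.75 CPM (144 to 149), Lta4h at 324.77 (342 to 344) and Serinc3 at 1201.8 (1316 to 1325). In Ptprc, Lta4h, Serinc3 and Dgat1 the far value differed from the others by little against its own level. No cause of these differences was tested.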

How the results depend on the processing

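With a minimum of 5 or 20 counts, of 1 CPM, or of 10 counts in 2 of the 4 libraries, the number of detected genes was 9038 to 11388, of receptors 132 to 172, of cytokines and other secreted products 38 to 58 and of transcription factors 115 to 130. Leaving out each library in turn gave 10124 to 10212 genes, 152 to 157 receptors, 45 to 46 cytokines and 118 to 122 transcription factors. The median CV was 12.972% to 15.083% with 1 library left out, the lowest without WT 1. Of the 20 genes of highest CPM, 19 to 20 stayed in that list in each of those runs, and 20 with unscaled totals or WT-only factors. No gene differed between WT TT and WT TS in the edgeR alternatives (449 to 718 genes at an unadjusted p under 0.05 with all 16 libraries, 810 with the 4 WT libraries alone, 296 to 707 with 1 left out), and DESeq2 called 1. With the longest transcript in place of all exons, the TPM of 138 of the 214 named genes moved by over 1 SD. With unscaled totals, 1 of the 214 did.

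No paired analysis was possible because no comparison was made between groups that share replicate numbers. At 2447504 to 2657153 counts per library, genes under 10 counts, or 3.71 to 4.05 CPM, have counting errors that are large against their values. Whether read density compresses the most abundant genes was not tested, and 4 libraries limit every statement on spread.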

Other observations

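Immunoglobulin transcripts showed a mixed pattern in the WT libraries. Of 153 immunoglobulin genes with a count, 7 were detected in all 4 libraries, and together the 153 took 0.212%, 0.342%, 0.283% and 0.276% of the counts in WT 1 to WT 4. The constant regions Ighm, Igkc and Igha had CVs of 1.81%, 4.51% and 4.996%, whereas the lambda constant regions Iglc2 and Iglc3, at 34.8 and 16.9 CPM, had 36.8% and 51.04%, and the variable segment Igkv5-48 113%. T cell receptor genes with a count numbered 58, of which 26 were detected, and took 0.171% ± 0.00398 of the counts. The short joining segment Trbj1-2 had 110, 112, 113 and 102 counts, a variance of 0.0301 times that of counting alone.

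Among haemoglobin genes, Hba-a1 had 24.4, 21.8, 23.4 and 29.5 CPM in WT 1 to WT 4. Its near-identical copy Hba-a2 averaged 0.197 CPM, and reads of the pair may be split. The beta chains Hbb-bs and Hbb-bt had no count in any WT library. Il5 and Ctla4 were both highest in WT 3, at 148 and 165 CPM, and so was Pla2g7, a phospholipase that degrades platelet-activating factor, at 132 CPM. No test links these 3 genes.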
